A study of Saccharomyces cerevisiae with 15 samples.

Results

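The 46 genes described here encode the proteasome of Saccharomyces cerevisiae, its assembly and accessory factors, and the transcription factor RPN4. They were chosen by systematic gene name from the 6600 genes counted. The rule used no measured values, but earlier results of these data were known when the list was made. The list comprises 14 core particle subunits, 6 RPT ATPases, 13 RPN and SEM1 cap subunits, RPN4, and 12 assembly or accessory factors. The study collected RNA-seq counts from 15 libraries, 3 biological replicates of each of 5 strains, and asked how poly(A) mRNA changes when assembly of RNA polymerase III is defective and when that defect is suppressed. All 5 strains carried, in the MJ15-9C background with SUP11 and ADE2, URA3, LYS2, LEU2 and HIS3 mutated, a chromosomal allele of RPC128, which encodes the second largest subunit of RNA polymerase III, that impairs assembly of the enzyme. The unsuppressed mutant, labelled [-], carried an empty vector in place of a suppressor plasmid. The [PRT1] strain carried a multicopy plasmid whose insert holds the whole of PRT1 and the 3′ part of the core subunit gene PRE10. The [RBS1] strain carried a multicopy RBS1 plasmid, and the [RBS1-R3H] strain the same plasmid with an inactive R3H domain. The wt strain was the same mutant complemented by native RPC128 on a centromeric plasmid, so it was not an unmutated strain. Cells were grown overnight in selective medium lacking uracil or leucine, then in glucose-rich YPD to log phase, where no selection held the plasmids. Which of these media each strain had is not stated. The RBS1 and RBS1-R3H plasmids had the same vector, and so the same marker, while the wt plasmid had another vector. The paper describes the PRT1 insert in a URA3 and in a LEU2 vector. Plasmid marker and overnight medium may therefore differ between strains, other than between [RBS1] and [RBS1-R3H]. Their part in the results was not tested.

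The proteasome degrades proteins marked with ubiquitin. Its core particle is a barrel of alpha and beta subunits whose beta ring holds the proteolytic sites, and its cap binds the substrate, removes ubiquitin and unfolds the chain with a ring of RPT ATPases. In yeast, Rpn4 is a short-lived activator, itself degraded by the proteasome, that binds an element called PACE in the promoters of proteasome genes. Transcripts of the subunits are therefore known to move together, while dedicated chaperones guide assembly of the core and of the RPT ring.

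The PACE element, spelled GGTGGCAAA and searched on both strands within 400 bases before the start codon in the RefSeq R64 genome, was found at 28 of the 46 members, or 60.9%, against 84 of 6001 protein-coding genes, or 1.4%. It stood before 12 of 14 core genes, all 6 RPT genes, 9 of 13 RPN genes and 1 of 12 assembly or accessory genes, ECM29, and it was not found before RPN4. The shorter GGTGGC, which every PACE element contains, was found at 34 members, or 73.9%, against 8.55% of protein-coding genes. PACE is known from the promoters of proteasome genes, so its excess among the members was given in advance. The 6001 protein-coding genes include the members. A match is a string of letters and no proof of binding. The 8 elements below, with 10 bases on each side and PACE in capitals, are those of members the results turn on: RPT6, PRE9 and RPN9 followed the common pattern, PRE2 carried the element but passed the test in none of the 9 comparisons without a replicate block, PRE10 was on the [PRT1] plasmid in part, and RPT1, RPN1 and ECM29 lay on chromosomes whose genes shifted together.
RPT6: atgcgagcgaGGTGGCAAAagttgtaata
PRE9: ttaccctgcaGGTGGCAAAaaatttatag
RPN9: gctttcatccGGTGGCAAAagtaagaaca
PRE2: acagcaaaagGGTGGCAAAacgaagaata
PRE10: cctctaaatcGGTGGCAAAaataagaaag
RPT1: ttagttttcgGGTGGCAAAattcggtaat
RPN1: tgtgttttacGGTGGCAAAaggcgagcac
ECM29: gccttttcttGGTGGCAAAaaaaaggtac

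All 8 are upstream of the coding sequence, each written on the strand that reads PACE. In R64 coordinates, the plus-strand stretches are chrVII:761223-761251 for PRE9, chrIV:1322086-1322114 for RPN9, chrXVI:732184-732212 for PRE2 and chrVIII:39943-39971 for ECM29. The minus-strand stretches are chrVII:411352-411380 for RPT6, chrXV:1018856-1018884 for PRE10, chrXI:174048-174076 for RPT1 and chrVIII:164838-164866 for RPN1. RPT1 was the only one of these 8 whose element lay on the strand opposite to the gene. The element ended 75 bases before the start codon of RPT6, the nearest of the 8, and 150 bases before that of PRE9, the farthest.

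Each library held 7365923 to 12164321 counts assigned to genes. The genes that define the strains followed the labels. RPC128, listed under the symbol RET1, had 192, 231 and 199 CPM (read counts scaled to library size, with TMM factors throughout) in the unsuppressed mutant, against 473, 432 and 440 CPM in wt. PRT1 had 4947, 5057 and 4449 CPM in [PRT1], against 625, 715 and 556 CPM in the unsuppressed mutant. RBS1 had 4223, 4425 and 4581 CPM in [RBS1] and 3946, 2463 and 2548 CPM in [RBS1-R3H], against 93.9, 134 and 72.9 CPM in the unsuppressed mutant. Deviations of genes from their strain mean followed gene length in several libraries, most in the second libraries of the unsuppressed mutant (Spearman's rho 0.56 across 5699 genes) and of [RBS1] (0.50), where longer genes were higher. Levels also moved with library number: within each strain, the third replicate was the highest for 29 to 31 of the 33 core, RPT and RPN subunits and the second was the lowest for 21 to 33.

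Some chromosomes shifted as a whole. The median of the 280 tested genes of chromosome VIII stood 0.96, 0.96 and 0.97 above the wt mean on the log2 scale in the 3 [PRT1] libraries, and all 280 had a positive log2 fold change in [PRT1] against wt. The median of the 309 genes of chromosome XI stood 0.82, 0.36 and 0.49 above the wt mean in the 3 unsuppressed libraries. Chromosome VIII (0.10, 0.29 and 0.33) and chromosome I (0.03, 0.28 and 0.30) were also higher in the unsuppressed mutant. The medians of the other 13 chromosomes lay between -0.08 and 0.04 in every library. RPN1, RPN10 and ECM29 are on chromosome VIII, RPT1 and ADD66 on chromosome XI, and no member is on chromosome I. DNA was not measured, and the part of these shifts in the results was tested only by taking each chromosome's median out of each library, an alternative chosen after seeing the data. Shares of all tested genes given below include these chromosomes. In the unsuppressed mutant against wt, chromosome XI held 218 of the 745 genes called higher and chromosome VIII 90. Against the unsuppressed mutant, chromosome XI held 240 of 804 lower calls in [PRT1], 224 of 1000 in [RBS1] and 219 of 398 in [RBS1-R3H].

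**Figure D1:**
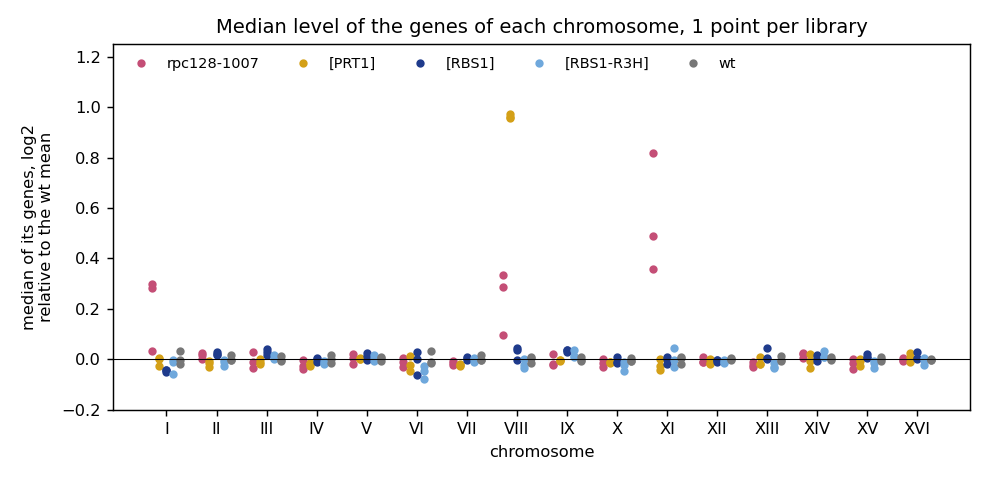
Median log2 level of the genes of each chromosome relative to the wt mean (y axis), 1 point per library, by chromosome (x axis) and strain (colour). Chromosome VIII stands near 0.96 in the 3 [PRT1] libraries and chromosome XI at 0.36 to 0.82 in the 3 unsuppressed libraries, while chromosomes other than I, VIII and XI stay between -0.08 and 0.04.

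Every member was expressed and all 46 passed the filter on low counts. Per kilobase of coding sequence in wt (RPKM, mean of 3 libraries), core subunits ranged from 284 for PRE2 to 668 for PUP3, RPT subunits from 259 for RPT3 to 363 for RPT2, and RPN subunits from 112 for RPN3 to 577 for SEM1. RPN4 stood at 73.8 RPKM. The assembly and accessory factors had a median of 53.0 RPKM, from 20.2 for HSM3, a chaperone of the RPT ring, to 359 for UMP1, the chaperone that matures the core particle. UMP1 was the only one of the 12 helpers within the range of the core subunits.

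Proteasome subunits fell in the unsuppressed mutant relative to wt. Of the 33 core, RPT and RPN subunits, 27 fell, none rose, and the median log2 fold change was -0.48, while the median over all tested genes was 0.01. Of all 46 members, 31 fell and 1 rose, against 5.62% of 5851 tested genes called lower and 12.7% called higher. Calls here and below are edgeR quasi-likelihood tests with Benjamini-Hochberg adjustment over all tested genes at 0.05, and a gene said to stand at a value has that log2 fold change. The largest fall among the core subunits was 1.49-fold, so the changes were small and shared by nearly all subunits. In these bulk cultures a small change in all cells and a larger one in some cells, plasmid loss included, cannot be told apart.

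In the core particle, 13 of 14 genes fell, with a median of -0.51. PRE5 (YMR314W), an alpha ring subunit, had 275, 239 and 322 CPM in the unsuppressed mutant, against 415, 358 and 475 CPM in wt, a log2 fold change of -0.58 ± 0.13 (SE, adjusted p = 0.00729). PRE10 (YOR362C), another alpha ring subunit, had 244, 223 and 295 CPM in the unsuppressed mutant, against 371, 333 and 427 CPM in wt, a log2 fold change of -0.57 ± 0.13 (SE, adjusted p = 0.00801). The libraries of the 2 strains did not overlap for either gene, as for all 14 core genes, where 14% of tested genes lay wholly below wt. Of the 3 subunits that carry the proteolytic sites, PUP1 (YOR157C, trypsin-like) had 194, 172 and 216 CPM in the unsuppressed mutant, against 278, 245 and 287 CPM in wt, and fell by 0.48 ± 0.10 on the log2 scale (SE, adjusted p = 0.00416). PRE3 (YJL001W, caspase-like) had 247, 222 and 282 CPM in the unsuppressed mutant, against 309, 298 and 351 CPM in wt, and fell by 0.35 ± 0.11 on the log2 scale (SE, adjusted p = 0.0466). PRE2 (YPR103W, chymotrypsin-like) was the exception, at 227, 185 and 219 CPM in the unsuppressed mutant, against 236, 234 and 267 CPM in wt. Its log2 fold change was -0.23 ± 0.11 (SE, adjusted p = 0.199), the smallest of the core.

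Among the RPT ATPases, which unfold substrates, 5 of 6 fell. RPT5 (YOR117W) had 268, 279 and 312 CPM in the unsuppressed mutant, against 418, 373 and 479 CPM in wt, and fell by 0.57 ± 0.10 on the log2 scale (SE, adjusted p = 0.000833). RPT6 (YGL048C) had 258, 275 and 298 CPM in the unsuppressed mutant, against 392, 380.2 and 452 CPM in wt, and fell by 0.56 ± 0.09 on the log2 scale (SE, adjusted p = 0.00042). All 3 mutant libraries were below all 3 wt libraries for both. RPT1 (YKL145W), on chromosome XI, was the exception, at 527, 383 and 489 CPM in the unsuppressed mutant, against 465, 404 and 476 CPM in wt, with overlapping libraries and a log2 fold change of 0.06 ± 0.11 (SE, adjusted p = 0.777). Its 3 mutant libraries had the same order as the median of chromosome XI. With chromosome medians removed, its log2 fold change was -0.51 ± 0.09 (SE, adjusted p = 0.00163).

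Of the 13 RPN and SEM1 subunits, 9 fell, with a median of -0.40. RPN7 (YPR108W), a lid subunit, had 205, 199 and 245 CPM in the unsuppressed mutant, against 308, 275 and 333 CPM in wt, and fell by 0.50 ± 0.10 on the log2 scale (SE, adjusted p = 0.00337). RPN8 (YOR261C), the partner of the deubiquitinase Rpn11, had 202, 176 and 215 CPM in the unsuppressed mutant, against 269.9, 257 and 309.5 CPM in wt, and fell by 0.50 ± 0.09 on the log2 scale (SE, adjusted p = 0.00178). The 4 that did not pass were RPN1, RPN10, RPN3 and SEM1, at -0.09, -0.20, -0.22 and -0.42. The first pair lie on chromosome VIII and had overlapping libraries. With chromosome medians removed they stood at -0.34 ± 0.07 (SE, adjusted p = 0.00808) for RPN1, a scaffold of the cap, and -0.45 ± 0.10 (SE, adjusted p = 0.0109) for RPN10, a ubiquitin receptor, and all 33 subunits had negative log2 fold changes, from -0.55 to -0.22.

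RPN4 (YDL020C), the activator of these genes, was called in no strain. It had 109, 135 and 99.1 CPM in the unsuppressed mutant, 103, 118 and 98.7 CPM in [PRT1], 111, 88.1 and 93.5 CPM in [RBS1] and 113, 102 and 99.5 CPM in [RBS1-R3H], against 115, 127 and 111 CPM in wt. Its log2 fold change against wt was -0.04 ± 0.12 (SE, adjusted p = 0.853) in the unsuppressed mutant, -0.14 ± 0.12 (SE, adjusted p = 0.491) in [PRT1], -0.27 ± 0.12 (SE, adjusted p = 0.163) in [RBS1] and -0.17 ± 0.12 (SE, adjusted p = 0.35) in [RBS1-R3H]. Nor was it called in the comparisons between the other strains. These counts show mRNA, and the level of Rpn4 protein was not measured.

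The helpers were mixed. In the unsuppressed mutant, 4 of 12 fell and 1 rose, with a median of -0.14. UMP1 (YBR173C) had 99.4, 90.8 and 123 CPM in the unsuppressed mutant, against 166, 150.1 and 166 CPM in wt, and fell by 0.62 ± 0.12 on the log2 scale (SE, adjusted p = 0.00198), the largest fall of any member. UBP6 (YFR010W), a deubiquitinase bound to the cap, had 147, 152 and 161 CPM in the unsuppressed mutant, against 215, 195 and 253 CPM in wt, and fell by 0.52 ± 0.10 on the log2 scale (SE, adjusted p = 0.00166). PBA1 (YLR199C), a chaperone of the alpha ring, fell by 0.45 ± 0.09 on the log2 scale (SE, adjusted p = 0.00379). BLM10 (YFL007W), an alternative cap, had 140.4, 169 and 156 CPM in the unsuppressed mutant, against 185, 174 and 203 CPM in wt, and fell by 0.27 ± 0.09 on the log2 scale (SE, adjusted p = 0.0438). ADD66 (YKL206C), the partner of Pba1, went the other way, with 114, 79.0 and 85.1 CPM in the unsuppressed mutant, against 58.9, 55.0 and 55.6 CPM in wt, and a log2 fold change of 0.71 ± 0.12 (SE, adjusted p = 0.00071). ADD66 is on chromosome XI, its 3 mutant libraries had the order of that chromosome's medians, and with chromosome medians removed its value was 0.14 ± 0.08 (SE, adjusted p = 0.258). ECM29 (YHL030W), which binds core and cap, was at 76.2, 104 and 134 CPM in the unsuppressed mutant, against 125, 96.2 and 148 CPM in wt, with a log2 fold change of -0.23 ± 0.18 (SE, adjusted p = 0.403) and overlapping libraries. The chaperones of the RPT ring NAS2, NAS6, HSM3 and RPN14 and the alpha ring chaperones POC4 and IRC25 did not pass, at -0.13, 0.31, 0.02, -0.05, 0.22 and -0.15.

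The 32 calls became 25 without wt replicate 3, the lowest count on leaving out 1 library, and PRE1, PRE3, PUP3, RPN2, RPN11, RPN13 and BLM10 each lost the call on leaving out at least 1 library (among them a log2 fold change of -0.28 for PRE3 without wt replicate 3 and of -0.20 for BLM10 without unsuppressed mutant replicate 1). Library numbers paired the samples in this comparison, and with the replicate block PRE2, RPN3 and SEM1 also fell and NAS6 rose (adjusted p = 0.0343, 0.0489, 0.0364 and 0.026). Over 18 alternatives, the adjusted p ran from 0.0332 to 0.514 for PRE2, from 0.00954 to 0.26 for RPN3, from 0.0089 to 0.482 for SEM1 and from 0.0117 to 0.266 for NAS6. Across genes, longer genes had higher log2 fold changes (Spearman's rho 0.24), and the core genes are short, with a median coding length of 762 bases. With the length trend removed, 35 members were called, 33 of them lower, and the median of the 33 subunits was -0.46.

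**Figure D2:**
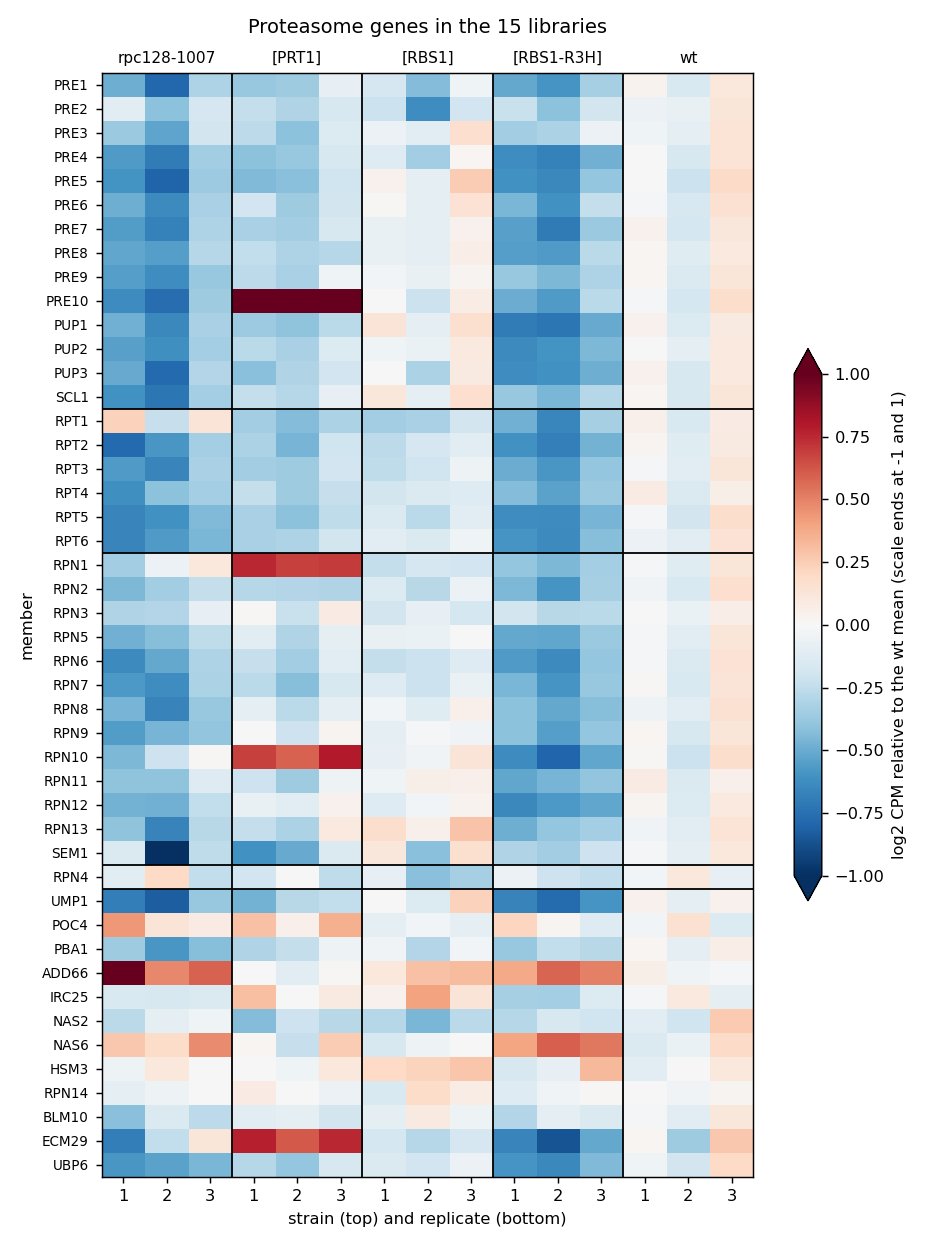
Log2 CPM of the 46 members (rows, ordered by class) relative to their wt mean, in the 15 libraries (columns, by strain and replicate, the unsuppressed mutant at the left), with blue below and red above wt and the scale ending at -1 and 1. Most rows of the core, RPT and RPN classes are blue in the unsuppressed mutant and [RBS1-R3H], paler in [PRT1] and close to white in [RBS1]. RPT1 is above wt in unsuppressed replicates 1 and 3, and PRE10, RPN1, RPN10 and ECM29 are red in [PRT1].

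The [RBS1] strain was compared with the unsuppressed mutant to see what changed with the active suppressor. Of the 46 members, 30 rose and 3 fell, against 12.6% of tested genes called higher and 17.1% called lower. Of the 33 subunits, 25 rose and 1 fell, with a median log2 fold change of 0.39. By class, 12 of 14 core genes, 5 of 6 RPT genes, 8 of 13 RPN genes and 5 of 12 helpers rose. This comparison and that of the unsuppressed mutant with wt use the same libraries of the unsuppressed mutant, so they are not independent, and the other comparisons likewise share libraries.

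PRE5 had 429, 389 and 495 CPM in [RBS1], against 275, 239 and 322 CPM in the unsuppressed mutant, and rose by 0.65 ± 0.13 on the log2 scale (SE, adjusted p = 0.00238), the largest rise of the core. SCL1 (YGL011C), an alpha ring subunit, had 414, 358 and 430.3 CPM in [RBS1], against 252, 232 and 302 CPM in the unsuppressed mutant, and rose by 0.62 ± 0.11 on the log2 scale (SE, adjusted p = 0.00089). All 3 [RBS1] libraries were above all 3 unsuppressed libraries for both. Of the proteolytic subunits, PUP1 rose by 0.55 ± 0.10 on the log2 scale (SE, adjusted p = 0.00121) to 295, 252 and 302 CPM in [RBS1], and PRE3 by 0.36 ± 0.11 (SE, adjusted p = 0.0297) to 306, 298 and 359 CPM. PRE2 again stood apart, at 212, 159.9 and 215 CPM in [RBS1], against 227, 185 and 219 CPM in the unsuppressed mutant, a log2 fold change of -0.10 ± 0.11 (SE, adjusted p = 0.548).

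RPT6 had 378, 369.6 and 395 CPM in [RBS1], against 258, 275 and 298 CPM in the unsuppressed mutant, and rose by 0.46 ± 0.09 on the log2 scale (SE, adjusted p = 0.00126). RPT5 had 382, 352 and 394 CPM in [RBS1], against 268, 279 and 312 CPM in the unsuppressed mutant, and rose by 0.40 ± 0.09 on the log2 scale (SE, adjusted p = 0.00664). Neither gene's libraries overlapped. RPT1 alone among the subunits fell, with 351, 358 and 395 CPM in [RBS1], against 527, 383 and 489 CPM in the unsuppressed mutant, overlapping libraries and a log2 fold change of -0.34 ± 0.11 (SE, adjusted p = 0.036). With chromosome medians removed, RPT1 stood at 0.22 ± 0.09 (SE, adjusted p = 0.0789). RPN13 (YLR421C), a ubiquitin receptor, had 204, 187 and 219.9 CPM in [RBS1], against 136, 113 and 149 CPM in the unsuppressed mutant, and rose by 0.62 ± 0.12 on the log2 scale (SE, adjusted p = 0.00183). RPN8 had 274, 256 and 289.6 CPM in [RBS1], against 202, 176 and 215 CPM in the unsuppressed mutant, and rose by 0.47 ± 0.09 on the log2 scale (SE, adjusted p = 0.00192).

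Among the helpers, UMP1 had 159.8, 146 and 188 CPM in [RBS1], against 99.4, 90.8 and 123 CPM in the unsuppressed mutant, and rose by 0.66 ± 0.12 on the log2 scale (SE, adjusted p = 0.000916). UBP6 rose by 0.40 ± 0.10 on the log2 scale (SE, adjusted p = 0.00718) to 199.9, 194 and 212 CPM in [RBS1], and BLM10 by 0.26 ± 0.09 (SE, adjusted p = 0.04) to 175, 199.6 and 181 CPM. PBA1 and IRC25 also rose, by 0.34 ± 0.09 (SE, adjusted p = 0.0145) and 0.35 ± 0.11 (SE, adjusted p = 0.0244). ADD66 fell by 0.47 ± 0.12 on the log2 scale (SE, adjusted p = 0.00749), with 61.0, 69.0 and 70.5 CPM in [RBS1], against 114, 79.0 and 85.1 CPM in the unsuppressed mutant. NAS6 (YGR232W) had 33.3, 35.9 and 37.0 CPM in [RBS1], against 44.9, 42.1 and 51.4 CPM in the unsuppressed mutant, and fell by 0.38 ± 0.12 on the log2 scale (SE, adjusted p = 0.0307). ECM29 was at 109, 101 and 109.8 CPM in [RBS1], with a log2 fold change of 0.03 ± 0.18 (SE, adjusted p = 0.934). With chromosome medians removed, ADD66 stood at 0.10 ± 0.08 (SE, adjusted p = 0.364). Only 19 members were called when the fit held these 2 strains alone, and 19 of the 33 calls held whichever library was left out. Those lost on leaving out a library included PRE3, RPT1, NAS6 and BLM10 (log2 fold changes of 0.27 without [RBS1] replicate 3, -0.24 without unsuppressed mutant replicate 1, -0.30 without unsuppressed mutant replicate 3 and 0.19 without unsuppressed mutant replicate 1). Library numbers paired these samples too, and with the replicate block PRE1 and SEM1 also rose (adjusted p = 0.00259 and 0.0433, which over 18 alternatives ran from 0.00108 to 0.314 and from 0.000654 to 0.478).

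Against wt, no member was called in [RBS1] by edgeR, where 6.53% of tested genes were called higher and 4.29% lower. At an unadjusted p under 0.05, 4 members were lower, RPN4 among them, and none higher, and DESeq2 and limma-voom also called none. With the replicate block, where the numbers were not taken as paired, 4 were called lower: PRE1, PRE2, RPT1 and RPN6 (adjusted p = 0.0451, 0.00816, 0.0237 and 0.0491 with edgeR). The median of the 33 subunits was -0.05, and their log2 fold changes ran from -0.33 for PRE2 to 0.17 for RPN13. The 6 RPT genes were all negative, with a median of -0.17. Among the helpers the extremes were NAS2 at -0.33 and ADD66 at 0.24. The lack of a call does not show equal levels: the log2 fold change of PRE2, at 212, 159.9 and 215 CPM in [RBS1], against 236, 234 and 267 CPM in wt, was -0.33 ± 0.11 (SE, adjusted p = 0.0844) with no overlap between the libraries.

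The [RBS1-R3H] strain served as the inactive control. Against the unsuppressed mutant, no member rose and 2 fell, where 4.67% of tested genes were called higher and 6.8% lower. No core gene was called by edgeR, and none had an unadjusted p under 0.05. The median of the 33 subunits was -0.01. The 2 that fell were RPT1, with 321, 285 and 355 CPM in [RBS1-R3H], against 527, 383 and 489 CPM in the unsuppressed mutant, at -0.54 ± 0.11 (SE, adjusted p = 0.00755), and RPN10, with 183, 163 and 197 CPM in [RBS1-R3H], against 207, 245 and 285 CPM in the unsuppressed mutant, at -0.44 ± 0.12 (SE, adjusted p = 0.0331). They lie on chromosomes XI and VIII, whose medians were lower in [RBS1-R3H] than in the unsuppressed mutant by 0.56 and 0.26. With chromosome medians removed, RPT1 stood at 0.02 ± 0.09 (SE, adjusted p = 0.962) and RPN10 at -0.18 ± 0.10 (SE, adjusted p = 0.436), and ADD66 was then the only member called, at 0.35 ± 0.08 (SE, adjusted p = 0.0156), against -0.22 as measured. The count was 4 without unsuppressed mutant replicate 1, 1 without unsuppressed mutant replicate 2 or 3 or [RBS1-R3H] replicate 1, and 0 without [RBS1-R3H] replicate 2 or when the fit held these 2 strains alone.

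Against wt, 33 members fell and 2 rose in [RBS1-R3H], where 9.55% of tested genes were called lower and 13.4% higher. Of the 33 subunits, 29 fell, and all 33 were negative, with a median of -0.46. By class, 12 of 14 core, all 6 RPT, 11 of 13 RPN genes and 4 of 12 helpers fell. PUP1 had 167, 164 and 191 CPM in [RBS1-R3H], against 278, 245 and 287 CPM in wt, and fell by 0.64 ± 0.10 on the log2 scale (SE, adjusted p = 0.000349). PRE4 (YFR050C), a beta ring subunit, had 255, 246 and 281 CPM in [RBS1-R3H], against 395, 353 and 432 CPM in wt, and fell by 0.59 ± 0.12 on the log2 scale (SE, adjusted p = 0.00198). The 2 core genes that did not pass were the proteolytic subunits PRE2 and PRE3, at -0.27 ± 0.11 (SE, adjusted p = 0.114) and -0.24 ± 0.11 (SE, adjusted p = 0.161), with 210.3, 185 and 216 CPM and 250.4, 257 and 307 CPM in [RBS1-R3H].

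RPT2 (YDL007W) had 313, 296 and 343 CPM in [RBS1-R3H], against 485, 438 and 508 CPM in wt, and fell by 0.59 ± 0.11 on the log2 scale (SE, adjusted p = 0.00121). RPT5 had 276, 274 and 307 CPM in [RBS1-R3H], against 418, 373 and 479 CPM in wt, and fell by 0.57 ± 0.10 on the log2 scale (SE, adjusted p = 0.000558). RPT1 fell here with its class, at a log2 fold change of -0.48 ± 0.11 (SE, adjusted p = 0.00704). RPN10 had 183, 163 and 197 CPM in [RBS1-R3H], against 285, 243 and 319.9 CPM in wt, and fell by 0.64 ± 0.12 on the log2 scale (SE, adjusted p = 0.0017). RPN12 (YFR052W), a lid subunit, had 156, 163 and 169.8 CPM in [RBS1-R3H], against 248, 222 and 260.1 CPM in wt, and fell by 0.58 ± 0.09 on the log2 scale (SE, adjusted p = 0.000204). For all these genes the 3 [RBS1-R3H] libraries lay below the 3 wt libraries. In this strain chromosomes VIII and XI had medians of -0.04 and 0.01 against wt.

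Of the helpers, UMP1 had 101, 94.1 and 106 CPM in [RBS1-R3H], against 166, 150.1 and 166 CPM in wt, and fell by 0.67 ± 0.12 on the log2 scale (SE, adjusted p = 0.000761). ECM29 had 78.2, 67.8 and 86.6 CPM in [RBS1-R3H], against 125, 96.2 and 148 CPM in wt, and fell by 0.67 ± 0.18 on the log2 scale (SE, adjusted p = 0.0152). UBP6 fell by 0.56 ± 0.10 on the log2 scale (SE, adjusted p = 0.000735), with 146, 141 and 162 CPM in [RBS1-R3H], and BLM10 stood at -0.18 ± 0.09 (SE, adjusted p = 0.163), with 153, 175 and 169 CPM. The 2 members that rose are chaperones. NAS6 had 48.8, 56.2 and 53.6 CPM in [RBS1-R3H], against 33.6, 35.5 and 42.3 CPM in wt, and rose by 0.51 ± 0.12 on the log2 scale (SE, adjusted p = 0.00821). ADD66 had 73.4, 84.6 and 80.1 CPM in [RBS1-R3H], against 58.9, 55.0 and 55.6 CPM in wt, and rose by 0.49 ± 0.12 on the log2 scale (SE, adjusted p = 0.00781). Whichever library was left out, 26 of the 35 calls held, and ECM29, at -0.51 without wt replicate 3 and -0.57 without [RBS1-R3H] replicate 2, was among those lost.

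Direct comparison of [RBS1] with [RBS1-R3H], in which the medians of chromosomes VIII and XI in either strain lay within 0.05 of the wt mean, called 29 members higher and 1 lower, where 13.5% of tested genes were called higher and 14.4% lower. Of the 33 subunits, 26 rose and none fell, with a median of 0.41, which was 0.53 when libraries were scaled by their totals, a scaling that moved the median of all genes by 0.14. PUP1 had 295, 252 and 302 CPM in [RBS1], against 167, 164 and 191 CPM in [RBS1-R3H], and was higher by 0.70 ± 0.10 on the log2 scale (SE, adjusted p = 0.000137). PRE5 was at 429, 389 and 495 CPM in [RBS1], against 274, 265 and 317 CPM in [RBS1-R3H], and was higher by 0.62 ± 0.13 on the log2 scale (SE, adjusted p = 0.00324). PRE2 was again not called, at -0.06 ± 0.11 (SE, adjusted p = 0.748).

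RPT6 stood 0.45 ± 0.09 (SE, adjusted p = 0.00147) higher in [RBS1] on the log2 scale, with 378, 369.6 and 395 CPM in [RBS1], against 272, 263 and 304 CPM in [RBS1-R3H]. RPT2 had 397, 425 and 441 CPM in [RBS1], against 313, 296 and 343 CPM in [RBS1-R3H], a difference of 0.41 ± 0.11 (SE, adjusted p = 0.0118). RPN10 had 267, 275 and 309 CPM in [RBS1], against 183, 163 and 197 CPM in [RBS1-R3H], and was higher by 0.65 ± 0.12 on the log2 scale (SE, adjusted p = 0.00148). RPN13 had 204, 187 and 219.9 CPM in [RBS1], against 129, 138 and 143 CPM in [RBS1-R3H], and was higher by 0.58 ± 0.12 on the log2 scale (SE, adjusted p = 0.00276). UMP1 had the largest difference of all members, 0.71 ± 0.12 (SE, adjusted p = 0.000448), with 159.8, 146 and 188 CPM in [RBS1], against 101, 94.1 and 106 CPM in [RBS1-R3H]. NAS6 was the only member lower in [RBS1], with 33.3, 35.9 and 37.0 CPM in [RBS1], against 48.8, 56.2 and 53.6 CPM in [RBS1-R3H], at -0.58 ± 0.12 (SE, adjusted p = 0.00313). All of these pairs of strains were free of overlap. Of the 30 calls, 20 held whichever library was left out, and RPT2 was lost without [RBS1-R3H] replicate 2 (0.34). With the replicate block, since library numbers paired these samples, PRE1, PRE3 and ECM29 were also higher (adjusted p = 0.00792, 0.00356 and 0.0212, which over 18 alternatives ran from 0.0053 to 0.413, from 0.00356 to 0.397 and from 0.000707 to 0.24).

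**Figure D3:**
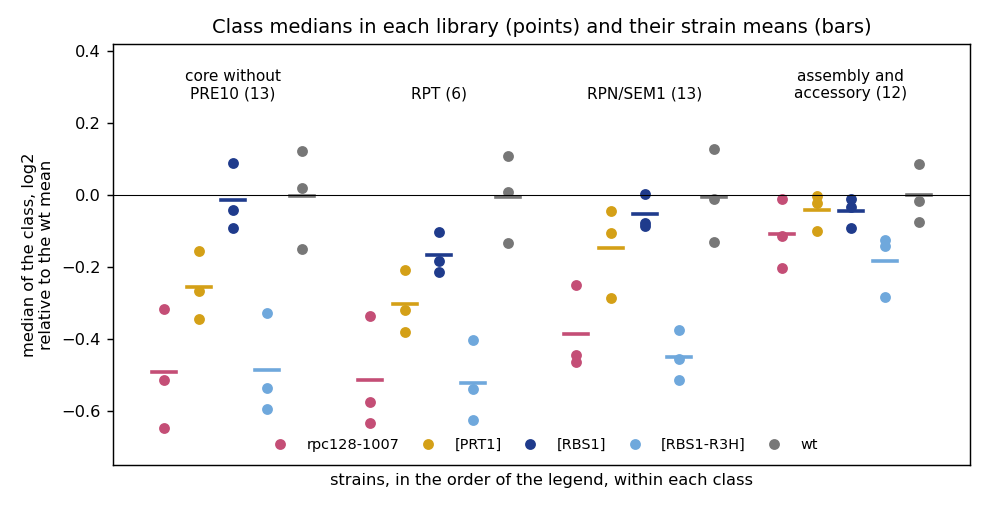
Median log2 level of each class relative to the wt mean (y axis) in each library (points) with the mean of each strain's 3 libraries (bars), for the core without PRE10, RPT, RPN and SEM1, and the assembly and accessory factors, with strains in the order of the legend, the unsuppressed mutant first. For the first 3 classes all libraries of the unsuppressed mutant and [RBS1-R3H] lie below all wt libraries, while those of [RBS1] overlap wt, and the helpers stay within about 0.3 of wt.

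In [PRT1] the medians of the core, RPT and RPN classes, averaged over libraries, lay between those of the unsuppressed mutant and [RBS1]. Against the unsuppressed mutant, 10 members rose and 2 fell, where 8.1% of tested genes were called higher and 13.7% lower. The median of the 33 subunits was 0.23. Those called higher were PRE10, SCL1 and PRE9 of the core, RPT6, the RPN genes RPN1, RPN8, RPN9, RPN10 and RPN12, and the helper ECM29. They included PRE10, in part on the plasmid, and the chromosome VIII genes RPN1, RPN10 and ECM29.

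PRE10 had 1606, 1766 and 2079 CPM in [PRT1], against 244, 223 and 295 CPM in the unsuppressed mutant, a log2 fold change of 2.84 ± 0.14 (SE, adjusted p = 2.97e-08). Reads from the plasmid and from the chromosomal gene cannot be told apart in these counts, and the plasmid holds only the 3′ part of PRE10. SCL1 had 324, 314 and 361 CPM in [PRT1], against 252, 232 and 302 CPM in the unsuppressed mutant, and rose by 0.35 ± 0.11 on the log2 scale (SE, adjusted p = 0.0334). PUP1, PRE3 and PRE2 did not pass, at log2 fold changes of 0.13, 0.09 and -0.01, with 210.4, 204 and 224 CPM, 266, 241 and 291 CPM and 208, 199.8 and 220 CPM in [PRT1]. RPT6 had 326, 329.9 and 359 CPM in [PRT1], against 258, 275 and 298 CPM in the unsuppressed mutant, and rose by 0.29 ± 0.09 on the log2 scale (SE, adjusted p = 0.0249). RPT1, on chromosome XI, fell by 0.43 ± 0.11 on the log2 scale (SE, adjusted p = 0.0144), with 351, 331 and 359.9 CPM in [PRT1], against 527, 383 and 489 CPM in the unsuppressed mutant. RPT1 stood at 0.16 ± 0.09 (SE, adjusted p = 0.28) with chromosome medians removed. RPN9 (YDR427W), a lid subunit on chromosome IV, rose by 0.41 ± 0.09 on the log2 scale (SE, adjusted p = 0.0028), with 216, 188 and 219.9 CPM in [PRT1], against 147, 156 and 165 CPM in the unsuppressed mutant.

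RPN10 had 453, 425 and 489 CPM in [PRT1], against 207, 245 and 285 CPM in the unsuppressed mutant, and rose by 0.89 ± 0.12 on the log2 scale (SE, adjusted p = 0.00011). RPN1 had 851, 812 and 819.8 CPM in [PRT1], against 397, 486 and 544 CPM in the unsuppressed mutant, and rose by 0.80 ± 0.10 on the log2 scale (SE, adjusted p = 3.51e-05). ECM29 had 211, 188 and 208 CPM in [PRT1], against 76.2, 104 and 134 CPM in the unsuppressed mutant, and rose by 0.95 ± 0.18 on the log2 scale (SE, adjusted p = 0.00126). The median log2 fold change of chromosome VIII in this comparison was 0.74, and with chromosome medians removed the values were 0.17 ± 0.10 (SE, adjusted p = 0.325) for RPN10, 0.08 ± 0.07 (SE, adjusted p = 0.535) for RPN1 and 0.24 ± 0.15 (SE, adjusted p = 0.339) for ECM29. ADD66 fell by 0.75 ± 0.12 on the log2 scale (SE, adjusted p = 0.000288), with 56.4, 52.2 and 56.8 CPM in [PRT1], against 114, 79.0 and 85.1 CPM in the unsuppressed mutant, where chromosome XI had a median of -0.59, and it stood at -0.16 ± 0.08 (SE, adjusted p = 0.217) with chromosome medians removed. UMP1, UBP6 and BLM10 did not pass, at log2 fold changes of 0.29, 0.25 and 0.14, with 116, 133 and 136 CPM, 182, 169 and 198 CPM and 173, 176 and 165 CPM in [PRT1]. The count of 12 was 19 without unsuppressed mutant replicate 3, 8 without its replicate 1 or 2, 7 with chromosome medians removed and 6 when the fit held these 2 strains alone. SCL1, RPT1 and RPT6 each lost the call without unsuppressed mutant replicate 1 (0.32, -0.33 and 0.24). With the replicate block, where the numbers were not taken as paired, 17 further members were called, all higher except NAS6.

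Against wt, 4 members rose and 3 fell in [PRT1], where 7.06% of tested genes were called higher and 4.91% lower. These rates were near those of the members, but 235 of the 413 genes called higher lay on chromosome VIII. The 4 that rose were PRE10, RPN1, RPN10 and ECM29, and the 3 that fell were PUP1, RPT4 and RPT5. Most subunits were negative without a call, since 30 of 33 had negative log2 fold changes, with a median of -0.26. Library numbers paired these samples, and with the replicate block 28 members were called, 24 of them lower and 4 higher. The share of all tested genes called with the block is not given here, so this count stands without that background. The split of 4 higher and 3 lower became 4 and 5 with median-ratio scaling or with library totals.

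PRE10 stood 2.27 ± 0.14 (SE, adjusted p = 2.24e-07) above wt. PUP1 had 210.4, 204 and 224 CPM in [PRT1], against 278, 245 and 287 CPM in wt, and fell by 0.34 ± 0.10 on the log2 scale (SE, adjusted p = 0.0401). RPT5 had 338, 319 and 355 CPM in [PRT1], against 418, 373 and 479 CPM in wt, and fell by 0.33 ± 0.09 on the log2 scale (SE, adjusted p = 0.0375). RPT4 (YOR259C) had 341, 314 and 344 CPM in [PRT1], against 425, 363 and 419 CPM in wt, and fell by 0.27 ± 0.08 on the log2 scale (SE, adjusted p = 0.0496). The libraries of these 3 did not overlap, but each lost its call without [PRT1] replicate 1, [PRT1] replicate 2, wt replicate 1 or wt replicate 3, and without wt replicate 3 they stood at -0.30, -0.23 and -0.24. The count was then 3 or 4, and it was 14 with DESeq2, 12 with the length trend removed and 2 with chromosome medians removed.

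The 3 members on chromosome VIII were the only cap or helper genes called above wt in [PRT1]. RPN1 had 851, 812 and 819.8 CPM in [PRT1], against 501, 465 and 551 CPM in wt, a log2 fold change of 0.71 ± 0.10 (SE, adjusted p = 0.000137). RPN10 had 453, 425 and 489 CPM in [PRT1], against 285, 243 and 319.9 CPM in wt, a log2 fold change of 0.69 ± 0.12 (SE, adjusted p = 0.0016). ECM29 had 211, 188 and 208 CPM in [PRT1], against 125, 96.2 and 148 CPM in wt, a log2 fold change of 0.72 ± 0.18 (SE, adjusted p = 0.0164). The chromosome's median was 0.97, so each rose by less than the median gene beside it. With chromosome medians removed their values were -0.25 ± 0.07 (SE, adjusted p = 0.0585) for RPN1, -0.27 ± 0.10 (SE, adjusted p = 0.123) for RPN10 and -0.25 ± 0.15 (SE, adjusted p = 0.335) for ECM29, close to the median of the 33 subunits. ECM29 lost its call as measured without [PRT1] replicate 1 (0.69) or wt replicate 2 (0.57).

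**Figure D4:**
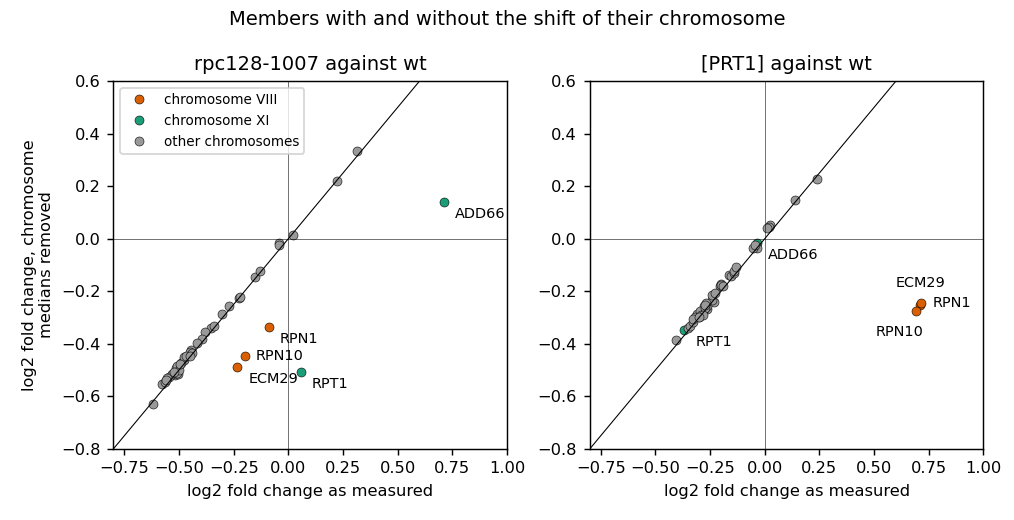
Log2 fold changes of 45 members (all but PRE10) as measured (x axis) and with each chromosome's median removed (y axis), in the unsuppressed mutant against wt (left) and [PRT1] against wt (right), with members on chromosomes VIII and XI coloured and named and the diagonal marking equal values. RPT1 moves to -0.51 on the left, and RPN1, RPN10 and ECM29 move to -0.25, -0.27 and -0.25 on the right, among the other members.

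The suppressors were also compared with each other. In [PRT1] against [RBS1], 4 members were higher and 3 lower, where 8.55% of tested genes were called higher and 7.78% lower. The members were thus called at rates near that background, in which 232 of the 500 genes called higher lay on chromosome VIII. By log2 fold change ± SE, the higher members were PRE10 (2.31 ± 0.14, adjusted p = 1.02e-07), RPN1 (0.91 ± 0.10, adjusted p = 1.08e-05), RPN10 (0.68 ± 0.12, adjusted p = 0.00128) and ECM29 (0.92 ± 0.18, adjusted p = 0.00214). The last 3 lie on chromosome VIII, whose median was 0.94 in this comparison, and with chromosome medians removed they stood at -0.03 ± 0.07 (SE, adjusted p = 0.867) for RPN1, -0.25 ± 0.10 (SE, adjusted p = 0.134) for RPN10 and -0.01 ± 0.15 (SE, adjusted p = 0.97) for ECM29. The lower members were PRE5, with 306, 311 and 361 CPM in [PRT1], against 429, 389 and 495 CPM in [RBS1], at -0.42 ± 0.13 (SE, adjusted p = 0.0415), PUP1 at -0.41 ± 0.10 (SE, adjusted p = 0.0111) and UMP1 at -0.36 ± 0.12 (SE, adjusted p = 0.0465). The median of the 33 subunits was -0.15, and 28 of them were negative. The count was 3 with chromosome medians removed, 11 without the second libraries of the unsuppressed mutant and [RBS1], and 4 without [PRT1] replicate 2 or [RBS1] replicate 3, where all of the lower calls were lost (log2 fold changes of PRE5, PUP1 and UMP1 at -0.33, -0.36 and -0.26 without [RBS1] replicate 3).

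**Figure D5:**
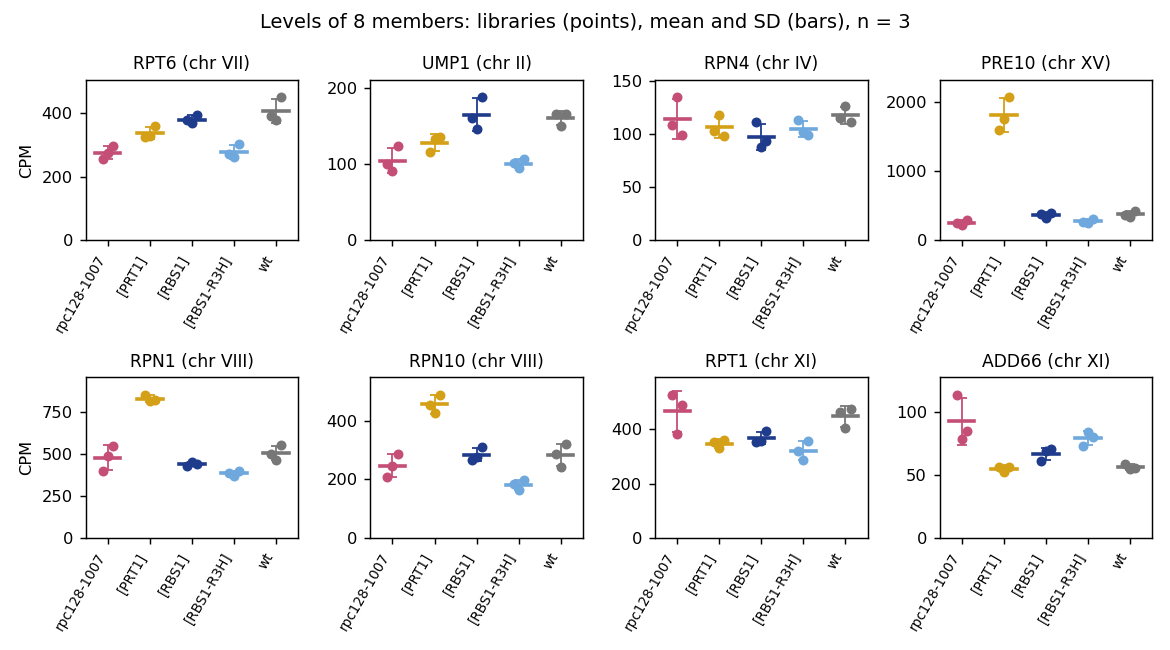
Levels in CPM (y axis, from 0) of RPT6, UMP1, RPN4, PRE10, RPN1, RPN10, RPT1 and ADD66 in each library (points) with the mean and SD of each strain's 3 libraries (bars), by strain (x axis). RPT6 and UMP1 are lower in the unsuppressed mutant and [RBS1-R3H] than in wt, RPN4 overlaps across strains, PRE10 reaches 1606 to 2079 CPM in [PRT1], and RPN1 and RPN10 are highest in [PRT1].

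The members with PACE were read beside those without it, as a description of letters and levels. In the unsuppressed mutant against wt, 23 of the 28 with the element fell and none rose, with a median of -0.48. Of the 18 without it, 8 fell and 1 rose, with a median of -0.23. Of all tested genes, 5.62% were called lower and 12.7% higher there. In [RBS1] against [RBS1-R3H], 21 of 28 with the element were higher, with a median of 0.40. Of the 18 without it, 8 were higher, with a median of 0.22, where 13.5% of all tested genes were called higher. The element stood before 27 of the 33 subunits but only 1 of the 12 helpers. The split therefore largely followed class, and element and class were not compared separately. PRE5 and PUP1 are core genes with no exact PACE match. PRE5 had the largest core fall in the unsuppressed mutant against wt (-0.58), where PUP1 stood at -0.48 and the core median was -0.51. PUP1 had the largest core difference in [RBS1] against [RBS1-R3H] (0.70). PRE2, with the element 146 bases before its start codon, was called in no comparison without the replicate block. UMP1, also without a match, had the largest fall of any member in the unsuppressed mutant.

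A list of 4 known regulators of RPN4 transcription was followed beside the members. YAP1, an oxidative stress activator, had 156, 149 and 184 CPM in the unsuppressed mutant, against 221, 184 and 235 CPM in wt, and fell by 0.39 ± 0.11 on the log2 scale (SE, adjusted p = 0.0259). PDR3, a drug resistance activator, had 107, 109 and 104 CPM in the unsuppressed mutant, against 90.7, 93.2 and 79.9 CPM in wt, and rose by 0.28 ± 0.09 on the log2 scale (SE, adjusted p = 0.0469). PDR1 and the heat shock factor HSF1 were at -0.19 and 0.08 and did not pass. None of the 4 was called in the other comparisons.

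From a list of 30 genes that act on ubiquitin upstream of the proteasome, 9 fell and 2 rose in the unsuppressed mutant against wt, with a median of -0.18, where 5.62% of all tested genes were called lower and 12.7% higher. With log2 fold changes ± SE in parentheses, the 9 included DDI1 (-0.59 ± 0.15, adjusted p = 0.0128), DSK2 (-0.55 ± 0.08, adjusted p = 0.000325) and RAD23 (-0.42 ± 0.06, adjusted p = 0.00038), shuttle receptors that carry ubiquitinated proteins to the proteasome, and CDC48 (-0.45 ± 0.09, adjusted p = 0.0027) with its cofactors UFD1 (-0.56 ± 0.15, adjusted p = 0.0159), NPL4, SHP1 and OTU1, which extract such proteins from complexes. UBC6 was the other. The 2 that rose, the ubiquitin ligase UFD4 (0.44 ± 0.10, adjusted p = 0.00509) and the activating enzyme UBA1 (0.42 ± 0.12, adjusted p = 0.0236), lie on chromosome XI. In [RBS1-R3H] against wt, where the median of chromosome XI was 0.01, 11 fell and 1 rose, the conjugating enzyme UBC5 (0.58 ± 0.19, adjusted p = 0.0377), with DDI1 (-0.75 ± 0.15, adjusted p = 0.00241) and SHP1 (-0.63 ± 0.10, adjusted p = 0.000252) falling most, where 9.55% of all tested genes were called lower and 13.4% higher. In [PRT1] against wt, 7 fell and none rose, DDI1 (-0.51 ± 0.15, adjusted p = 0.0416) and the Cdc48 cofactor DOA1 (-0.40 ± 0.10, adjusted p = 0.0184) among them, where 4.91% were called lower and 7.06% higher. In [RBS1] against wt, 2 fell and none rose: DOA1 (-0.42 ± 0.10, adjusted p = 0.0206) and UFD2 (-0.33 ± 0.07, adjusted p = 0.0109), where 4.29% were called lower and 6.53% higher, a share of the list near that background.

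Among the suppressor comparisons, 9 of the 30 rose and 3 fell in [RBS1] against the unsuppressed mutant, with UFD1 (0.46) and OTU1 (0.45) highest, and UBA1 (-0.70), UFD4 (-0.67) and DOA1 (-0.59), all on chromosome XI, lower, where 12.6% of all tested genes were called higher and 17.1% lower. The same 3 genes fell in [RBS1-R3H] against the unsuppressed mutant (-0.53, -0.60 and -0.65), where 6.8% were called lower and 4.67% higher, and in [PRT1] against the unsuppressed mutant (-0.72, -0.54 and -0.58), where 13.7% were called lower and 8.1% higher and RAD23 alone of the list rose (0.23 ± 0.06, adjusted p = 0.016). In [RBS1] against [RBS1-R3H], 8 were higher, led by UBC7 (0.56) and UFD1 (0.52), and 4 lower, led by UBC5 (-0.86) and the ligase HUL5 (-0.50), where 13.5% were called higher and 14.4% lower. In [PRT1] against [RBS1], CDC48 (-0.32) and UBC6 (-0.28) were lower and none higher, where 7.78% were called lower and 8.55% higher.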

How the data were processed

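Poly(A) RNA was selected with oligo(dT), and 3 biological replicates of each of 5 strains were sequenced as paired reads. The authors mapped reads to the EF4 (Ensembl) genome with TopHat2 2.0.11 and counted them per gene in R with GenomicAlignments, and DESeq2 1.24.0 is named for their own tests. The counting mode and use of strand are not given in the sources used here. The deposited values are raw counts for 6600 genes. Each library held 7365923 to 12164321 counts, with a median of 9449052, and this number and the spread between cultures limit the precision.

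Counts were tested with edgeR 4.0.16 (R 4.3.3) by the quasi-likelihood F test, with TMM scaling (factors 0.93 to 1.05), the filterByExpr filter (5851 genes kept) and 1 fit over all 15 libraries. Benjamini-Hochberg adjustment at 0.05 covered all tested genes in each of 9 comparisons. The fit was run on simulated counts without replicate, length or chromosome shifts and with changes larger than those of most members. That run cannot speak to those features of the data. Class medians and per-library CPM came from the same scaling. Alternatives were median-ratio scaling, library totals, no filter, DESeq2 1.42.0, limma-voom (limma 3.58.1), a replicate block, 2 strains alone, removal of a length trend (loess, span 0.5), libraries left out and, chosen after seeing the data, removal of chromosome medians. The numbers paired the samples of the unsuppressed mutant against wt, [RBS1] against the unsuppressed mutant, [PRT1] against wt and [RBS1] against [RBS1-R3H], where deviations from the strain means of same-numbered libraries correlated at 0.16 to 0.73 across genes. The other 5 comparisons were not taken as paired, since their lowest same-numbered correlation ran from -0.23 to 0.098. This rule came from the data and not from the design. It paired wt with the unsuppressed mutant and with [PRT1], but not those strains with each other.

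The 46 members, the lists and the tests were chosen with earlier results of these data known. Genes were named by rule: RPN4, PRE10, the proteolytic subunits PRE2, PRE3 and PUP1, and UMP1, BLM10, ECM29 and UBP6 in all libraries, and in each comparison the 2 called members of each class with the largest changes, any called member that went against its class, and from the ubiquitin list the 2 largest called each way. Other genes named were chosen after their values were seen. Of the 6600 identifiers, 5917 matched RefSeq R64, which gave lengths, chromosomes and promoter sequences. The build differs from EF4, and no counts were moved between them. No member overlaps another annotated gene, and no pair of libraries agreed within sampling noise.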

Additional observations from a re-analysis of the deposited data

How the results depend on the processing

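Over 46 members, 9 comparisons and their alternatives, 7360 values were recomputed: 6754 kept their direction and their side of the threshold, 341 became called, 241 lost the call and 24 reversed. All reversals came with chromosome medians removed, with and without the replicate block. RPT1 stood at -0.51 and -0.51 in the unsuppressed mutant against wt, 0.16 and 0.16 in [PRT1] against the unsuppressed mutant, 0.22 and 0.23 in [RBS1] against the unsuppressed mutant, and 0.017 and 0.017 in [RBS1-R3H] against the unsuppressed mutant. ADD66 stood at 0.10 and 0.10 in [RBS1] and 0.35 and 0.34 in [RBS1-R3H], both against the unsuppressed mutant. In [PRT1] against wt, without and with the block, RPN1 stood at -0.25 and -0.25, RPN10 at -0.27 and -0.27, and ECM29 at -0.25 and -0.23. In [PRT1] against [RBS1] RPN1 stood at -0.027 and -0.026, RPN10 at -0.25 and -0.25, and ECM29 at -0.013 and -0.012. The cause of the chromosome shifts was not tested. Shares of all tested genes called under the alternatives are not given here, so the member counts under them stand without that background.

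In [PRT1] against the unsuppressed mutant the 12 became 29 with the replicate block, 33 with the block and the length trend removed, 24 with the block and chromosome medians removed, 7 with chromosome medians removed, 6 with 2 strains alone and 8 to 19 on leaving out a library. In [PRT1] against wt the 7 became 28 with the block, 31 with the block and the length trend removed, 26 with the block and chromosome medians removed, 14 with DESeq2, 12 with the length trend removed, 2 with chromosome medians removed and 3 to 9 on leaving out a library. In [PRT1] against [RBS1] the 7 became 17, 19 and 14 with the block alone, with the length trend removed and with chromosome medians removed, 3 with chromosome medians removed alone, 11 without the second libraries of the unsuppressed mutant and [RBS1], and 4 to 7 on leaving out a library.

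In [RBS1-R3H] against the unsuppressed mutant the 2 became 4 with the block, 5 with the block and the length trend removed, 1 with chromosome medians removed (with or without the block) or without both second libraries, 0 with 2 strains alone and 0 to 4 on leaving out a library. In [RBS1] against wt the 0 became 4 with the block, 11 with the block and the length trend removed, 8 with the block and chromosome medians removed and 1 with the length trend removed. In [RBS1] against the unsuppressed mutant the 33 became 19 with 2 strains alone. On leaving out a library, counts were 25 to 32 in the unsuppressed mutant against wt, 22 to 30 in [RBS1] against the unsuppressed mutant, 27 to 34 in [RBS1-R3H] against wt, 20 to 31 in [RBS1] against [RBS1-R3H] and 0 in [RBS1] against wt. In [RBS1-R3H] against wt the 35 became 38 with the block, as PRE2, PRE3 and RPN3 also fell (edgeR adjusted p = 0.013, 0.00448 and 0.0311). The numbers were not taken as paired in 5 comparisons, and in those comparisons 3 of 6 libraries ([PRT1] against the unsuppressed mutant), 6 ([RBS1-R3H] against the unsuppressed mutant), 5 ([RBS1] against wt), 5 ([RBS1-R3H] against wt) and 2 ([PRT1] against [RBS1]) correlated best with their own number, a hint from the data and not the design. In the paired comparisons other than [PRT1] against wt, the block changed only the calls given beside the results.

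Scaling by library totals moved the median of all genes by more than 0.1 in [RBS1-R3H] against wt (-0.12) and [RBS1] against [RBS1-R3H] (0.14), where the median of the 33 subunits was 0.53 in place of 0.41, so changes are relative to those shifts. Calls over all genes then split into 592 higher and 598 lower in the unsuppressed mutant against wt (745 and 329 with TMM), 1125 and 715 in [RBS1] against the unsuppressed mutant (737 and 1000), 580 and 1142 in [RBS1-R3H] against wt (782 and 559), 1460 and 574 in [RBS1] against [RBS1-R3H] (788 and 842), and 423 and 660 in [PRT1] against [RBS1] (500 and 455). With 3 libraries a strain, p-values rest on the spread between these cultures, and depth did not keep any member from being tested.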
